A study of Mus musculus with 2 samples.

Results

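The transcripts described here belong to 10 genes that encode the smooth muscle contractile apparatus of mammary myoepithelium: Acta2, Actg2, Myh11, Myl9, Mylk, Tpm2, Tagln, Cnn1, Lmod1 and Oxtr. They were chosen by name for their known roles in contraction, with earlier results of these data known. They make up 10 of the 54438 genes whose transcripts were summed. The series is about basal cells that carry or lack Pd-l1, an inhibitory ligand of T cells, but holds 2 libraries titled W1 and W2 whose remaining labels are the same. Neither library could be placed in a Pd-l1 class, so the values are those of 2 single libraries side by side, with no replicate, no test and no p-value. Both came from mammary glands of wild type C57BL/6 mice 8 weeks old, with no other allele or agent named. Cells were sorted by flow cytometry, lysed in a Smart-seq reagent and made into stranded libraries. The labels name neither the antibodies nor the gates, mice or cell numbers.

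Myoepithelial cells form the outer, basal layer of the mammary ducts and alveoli and squeeze milk toward the nipple. They are epithelial cells that carry the contractile machinery of smooth muscle. Oxytocin binds its receptor on these cells, calcium enters the cytoplasm and binds calmodulin, and calmodulin switches on myosin light chain kinase. The kinase phosphorylates the regulatory light chain of myosin, and myosin then pulls on filaments of smooth muscle actin that are coated with tropomyosin and calponin. Many of these genes are known targets of serum response factor, which binds a DNA motif named the CArG box together with coactivators of the myocardin family.

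Promoter sequences are shown because CArG boxes and MCAT elements, the latter bound by TEAD factors, are known from smooth muscle promoters. The 250 bases before the RefSeq start of each gene on GRCm38.p6 were taken. Of the 10 genes, 7 were matched (Acta2, Myl9, Mylk, Lmod1, Cnn1, Oxtr and Tpm2). RefSeq starts can differ from the gene bounds given below, which come from GENCODE. The Acta2 and Mylk windows lie inside those bounds. The CArG box, which reads the same on both strands in its general form, was searched exactly, and apart from that with 1 C or G within its run of A and T. Each window of 30 bases below is written 5′ to 3′ on the strand of the gene, with the match in capitals.
Myl9 CArG box, chr2:156775293-156775322, plus strand: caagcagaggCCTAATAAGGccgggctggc
Myl9 CArG box with 1 mismatch, chr2:156775355-156775384, plus strand: cattcttctgCCTTGTAAGGccgggcggcc
Acta2 CArG box with 1 mismatch, chr19:34255438-34255467, minus strand: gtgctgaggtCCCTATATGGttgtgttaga
Acta2 CArG box with 1 mismatch, chr19:34255388-34255417, minus strand: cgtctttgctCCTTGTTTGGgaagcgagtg
Acta2 MCAT, chr19:34255502-34255531, minus strand: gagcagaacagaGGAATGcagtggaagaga
Mylk MCAT, chr16:34784780-34784809, plus strand: tgcagttcagaaCATTCCctggtacgtgca
Lmod1 MCAT, chr1:135324671-135324700, plus strand: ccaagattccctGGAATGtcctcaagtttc

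An exact CArG box stood in 1 of the 7 promoters, that of Myl9, where it began 161 bases before the start. Of all 32851 promoters in the table, 1.47% held such a box. The form with 1 mismatch was found in Myl9, 99 bases before the start, and in Acta2, 84 and 34 bases before it, and was held by 7.25% of all promoters. The MCAT element CATTCC, searched on both strands, lay in 3 of the 7 promoters, those of Acta2, Mylk and Lmod1, against 12.6% of all promoters. The word TATAAA, also searched on both strands, was in 0 of the 7 and in 12.4% of all promoters. No searched motif overlapped another in these windows. The promoters with CArG matches, those of Acta2 and Myl9, belong to genes with levels among the highest 3 of the group below. Tagln, the other of these 3, had no matched promoter and was not searched. Cnn1, next by level, was searched and held none of the motifs. A link between motif and level was not tested.

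The labels call both libraries, W1 and W2 below, basal cells, and the marker genes of the basal layer were found in W2 but hardly in W1. Of 12 basal markers, 8 had 0 reads in W1, against 2 in W2 (Trp63 and Itgb4, both at 0 in the 2 libraries), and their summed level was 147 TPM in W1 and 21688 TPM in W2. TPM is a level scaled for transcript length and library size. Reads shared by isoforms were mostly not counted. Of the 50-mers (words of 50 bases) of Trp63 and Itgb4, 8.42% and 1.83% occur in no other listed transcript, so their zeros carry little weight. Krt5, a keratin of basal cells, had 0 and 3923 reads in W1 and W2, and Krt14, its partner, had 1 and 6230. Epcam, an epithelial adhesion protein, had 0 and 9404 reads. The basal list's remaining signal in W1 was nearly all Itga6, an integrin also carried by endothelium, at 140 TPM beside 170 TPM in W2. Of 10 endothelial markers, 10 were read in W1 and 1 in W2, with summed levels of 4888 and 4.78 TPM. W1 therefore went against its label, and each statement below is about the library with that title. The summed level of the 10 luminal markers was also higher in W2 (7.35 and 2701 TPM in W1 and W2). Nearly all of it was Krt8 and Krt18, at 1691 and 995 TPM in W2. Of these 10 markers 4 were higher in W2 by 2-fold and 5 had 0 reads in both libraries, while Esr1 had 24 reads in W1 and 7 in W2. The fibroblast markers were higher in W2 (3.19 and 230 TPM). The leukocyte markers were higher in W1 (88.4 and 6.90 TPM), with 186 and 0 reads on Lyz2 and 145 and 0 on Cd79a. The part of these other cells in the contractile levels was not tested. The libraries held 3055838 (W1) and 3800028 (W2) counted reads, as recovered from the size of 1 read's step in the deposited FPKM values.

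The contractile genes were far higher in W2. Their summed level was 59.4 TPM in W1 and 25517 TPM in W2, which is 0.0059% and 2.55% of all TPM. Of the 10 genes, 8 reached 1 TPM in at least 1 library and were compared, and all 8 were 2-fold or more higher in W2 on the scale of TPM + 1. Myh11, Cnn1, Lmod1 and Oxtr entered through their W2 level only. The first 3 of these had 0 TPM in W1, so entry itself fixed their 2-fold call toward W2. Acta2, Myl9, Tagln and Mylk were above 1 TPM in W1 too, and these 4 were also higher in W2. Over all 12587 genes compared, 32.9% were higher in W2 by the 2-fold rule and 34.7% in W1, together 67.6%. Because the 10 genes were chosen with earlier results of these data known, their shared direction is a description only. The 2 genes not compared were Actg2, with 1 read in W2, and Tpm2, with none in either. The median log2 ratio of TPM + 1, W1 over W2, was -7.00 over the 8 genes, -3.47 over all 10 and -0.07 over all genes compared. Counting the genes with 0 reads in W1 at the ratio that a floor of 3 reads per library gives, the median of the 8 was 274-fold. In bulk RNA, fewer cells of a type and less RNA per cell cannot be told apart.

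**Figure D1:**
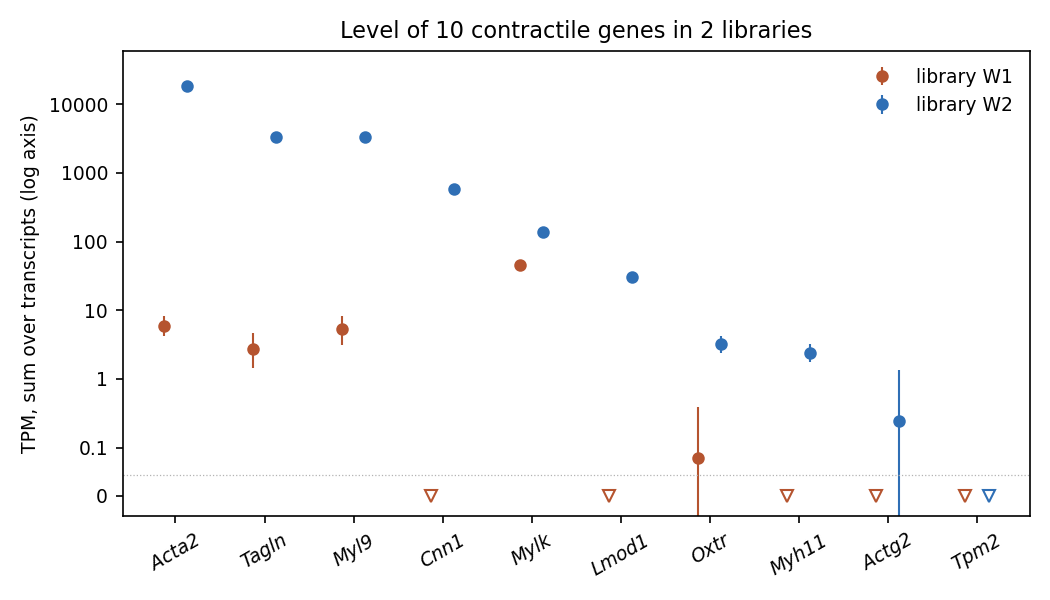
TPM of the 10 contractile genes in W1 (orange) and W2 (blue) on a log axis, with exact 95% intervals on reads as bars. Open triangles below the dotted line mark 0 reads and are drawn at a set height labelled 0. The 8 genes compared stood higher in W2, from Acta2 at 18192 TPM to Myh11 at 2.40 TPM there, while Mylk was the highest gene of W1 at 45.4 TPM.

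Acta2, smooth muscle actin, is the main thin filament of the myoepithelial cell and the gene most used to mark it. Its only listed transcript (gene ENSMUSG00000035783.9, chr19:34241090-34255590 on the minus strand of GRCm38, 9 exons) had 37 reads and 5.93 TPM in W1. In W2 it had 112934 reads and 18192 TPM (interval 18086 to 18298), which was 1.82% of all TPM of that library. The ratio of the TPM values was 3068-fold, with an exact 95% interval on reads of 2226 to 4357, and the log2 ratio of TPM + 1 was -11.36. Of 12587 genes, Acta2 ranked 2 from the end most in favour of W2. All intervals on reads cover counting error only, since cDNA was amplified and no molecular identifiers are named. Reads of Acta2 were not whole in W1 on the annotated length (36.6) and were rounded, so its count may rest on a length other than that used by the authors.

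Actg2 encodes the smooth muscle actin of gut and other viscera. The gene (ENSMUSG00000059430.14, chr6:83512905-83536265, minus strand) had 0 reads in W1 and 1 read, 0.246 TPM, in W2. Such a count gives no order between the libraries. Its 6 listed transcripts overlap so much that 6.02% of their 50-mers, words of 50 bases, occur in no other listed transcript, so a low count here does not show a low level.

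Myh11, the heavy chain of smooth muscle myosin, supplies the motor. The gene (ENSMUSG00000018830.10, chr16:14194535-14291372, minus strand) had 0 reads in W1 and 48 reads, 2.40 TPM (1.77 to 3.19), in W2. It was 15.9-fold higher there at a floor of 3 reads for W1, and at least 12.4-fold by the exact interval. All 48 reads fell on ENSMUST00000090287, a coding isoform with 119 own 50-mers among its 6500, which lie on average 94.1% of the way along the transcript. The 2 other long isoforms share nearly all of that sequence and had 0 reads, as did a retained-intron transcript with 989 own 50-mers. Myh11 stood close to the bottom by TPM, with few own 50-mers on which its isoforms could be told apart.

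Myl9, the regulatory light chain whose phosphorylation starts contraction, was among the highest of the group. The gene (ENSMUSG00000067818.6, chr2:156775420-156781658, plus strand) had 18 reads, 5.27 TPM, in W1 and 11281 reads, 3278 TPM (3218 to 3339), in W2. The ratio was 623-fold (394 to 1051), with a log2 ratio of -9.03. All reads fell on ENSMUST00000088552, the coding isoform with 4 exons, and 0 on the 3 short non-coding isoforms, which have 45 to 47 own 50-mers each. This is the gene with the exact CArG box shown above.

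Mylk, the kinase that phosphorylates the light chain, differed least of the 8 genes compared. The gene (ENSMUSG00000022836.11, chr16:34745210-35002420, plus strand) had 1001 reads, 45.4 TPM (42.6 to 48.3), in W1 and 2862 reads, 138 TPM (133 to 144), in W2. The ratio was 3.05-fold (2.83 to 3.28), with a log2 ratio of -1.59. Mylk made up 76.5% of the group's TPM in W1 and 0.542% in W2. Without it, the remaining 9 genes summed to 14.0 TPM in W1 and 25378 TPM in W2. The other 9 genes had at most 37 reads each in W1. The long form of the kinase is also known from endothelium, whose markers were high in that library, and their part in the Mylk level was not tested.

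The libraries differed in which Mylk transcripts they held. Mylk-201, the full-length coding transcript with 32 exons, had 952 reads in W1 and 2747 in W2, a ratio of 2.87-fold (2.66 to 3.09). It made up 95.1% and 96.0% of the Mylk reads of W1 and W2, shares that leave out most reads common to several isoforms. Mylk-202, a non-coding transcript with a retained intron that begins 39711 bases before Mylk-201, had 49 reads in W1 and 0 in W2. It was 16.4-fold higher in W1 at a floor of 3 reads for W2. By the exact interval, its ratio of W2 over W1 was 0.0777 or less. The other 11 read transcripts of the group, 1 of them with a single read, had more in W2. Mylk-202 took 4.90% of Mylk reads in W1 (exact binomial interval 3.64 to 6.42), against 0 of 2862 in W2, which allows a share of up to 0.105% by the floor of 3 reads and 0.129% by the exact interval.

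Mylk-203 is a short coding transcript of 3 exons and 477 coding bases that starts 7613 bases before the end of a gene 257211 bases long. It had 0 reads in W1 and 115 reads, 23.3 TPM, in W2. It was 38.1-fold higher there at a floor of 3 reads for W1, and at least 30.5-fold by the exact interval. It took 4.02% of the Mylk reads of W2 (3.33 to 4.80), and the 0 of 1001 reads in W1 allow a share of up to 0.300% by the floor of 3 reads and 0.368% by the exact interval. The end of the Mylk gene is known as the source of telokin, a small protein of smooth muscle made from a promoter inside the gene. Whether Mylk-203 encodes telokin was not tested. Mylk-202 and Mylk-203 have 2320 and 264 own 50-mers, so both could be counted apart from Mylk-201, which has 2407. With reads shared by isoforms mostly not counted, shares of reads understate a transcript with few own 50-mers. By TPM, Mylk-203 stood at 23.3 and Mylk-201 at 115.1 in W2. By reads per own 50-mer, on the scale used for the gene order below, they stood at 114.6 and 300.3 there.

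**Figure D2:**
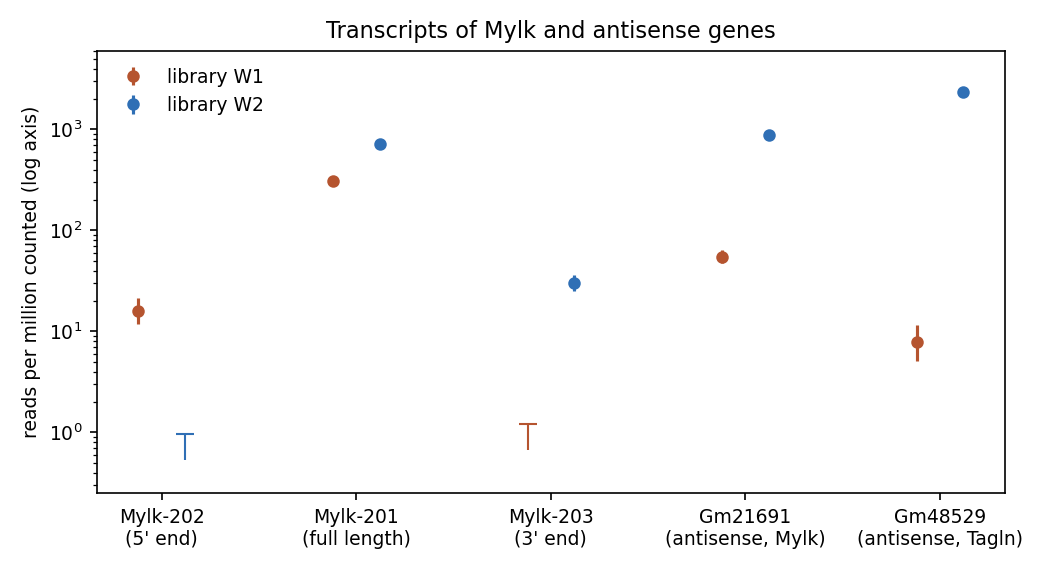
Reads per 1000000 counted reads on 3 Mylk transcripts and on the antisense genes Gm21691 and Gm48529, with W1 in orange, W2 in blue and a log axis. Points carry exact 95% intervals, and a bar with a line below it is the upper limit of a library with 0 reads. Mylk-202 was read in W1 only and Mylk-203 in W2 only, and both antisense genes stood higher in W2.

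Tpm2, a tropomyosin that lies along the actin filament, is listed at 0 in both libraries. The gene (ENSMUSG00000028464.16, chr4:43514711-43523765, minus strand) has 6 listed transcripts, and its 3 coding isoforms of full length share most of their sequence. The longest, ENSMUST00000030184, has 0 own 50-mers of 2126, and over the gene 11.9% are own. With reads shared by isoforms mostly not counted, the 0 does not show that Tpm2 was silent in either library. Only a non-coding transcript, ENSMUST00000150262, with 555 own 50-mers, had much sequence to be counted on.

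Tagln, transgelin or SM22, is an actin-bundling protein of smooth muscle. The gene (ENSMUSG00000032085.5, chr9:45929619-45936058, minus strand) had 13 reads, 2.69 TPM, in W1 and 15938 reads, 3286 TPM (3235 to 3338), in W2. The ratio was 1222-fold (714 to 2295), with a log2 ratio of -9.80 and rank 10 of the 12587 genes. The coding transcript Tagln-201 held 13 and 15866 of these reads. Tagln-203, a retained-intron transcript, had 0 and 72 reads, which is 0.452% of the Tagln reads of W2. It has 0 own 50-mers when both strands of the other transcripts are searched and 408 when only the same strand is.

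The Tagln locus is annotated on both strands. Gm48529, an antisense gene at chr9:45930112-45933738 on the plus strand, shares 877 exon bases with Tagln-201. It had 24 reads in W1 and 8923 in W2, a ratio of 369-fold (248 to 577). At the 3′ end of Mylk, the antisense gene Gm21691 (chr16:34999301-35023205) shares 224 exon bases with Mylk-201 and with Mylk-203. It had 168 and 3341 reads, a ratio of 19.8-fold (16.9 to 23.2), larger than that of Mylk itself. A further antisense gene within Mylk, E130310I04Rik, shares 333 exon bases with Mylk-201 and had 7 and 21 reads, within 2-fold on the scale used. The library kit is a stranded one, but whether strand was used in counting is not stated in the labels or processing notes. Whether strand was kept through the amplification of cDNA was not tested, so the strand that gave the antisense genes' reads is not known. Values of Tagln, Mylk and these partners are therefore uncertain, most plainly where exons overlap.

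Cnn1, calponin, binds actin and slows the myosin motor, and is used as a marker of differentiated smooth muscle. The gene (ENSMUSG00000001349.5, chr9:22099216-22109630, plus strand) had 0 reads in W1 and 4256 reads, 586 TPM (568 to 604), in W2. It was at least 1409-fold higher in W2. All reads lay on ENSMUST00000001384, the coding isoform with 7 exons and 1296 own 50-mers.

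Lmod1, leiomodin, starts new actin filaments in smooth muscle cells. The gene (ENSMUSG00000048096.7, chr1:135324807-135368065, plus strand) had 0 reads in W1 and 365 reads, 30.3 TPM (27.3 to 33.6), in W2. It was 121-fold higher there at a floor of 3 reads for W1, and at least 97.8-fold by the exact interval. It has 1 listed transcript, all of whose 3899 50-mers are its own. Its count therefore does not hang on how reads shared by isoforms were treated.

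Oxtr, the oxytocin receptor, is the signal input of the milk ejection reflex. The gene (ENSMUSG00000049112.9, chr6:112473683-112489943, minus strand) had 1 read, 0.0700 TPM, in W1 and 46 reads, 3.21 TPM (2.35 to 4.28), in W2. The ratio was 45.8-fold, with an interval of 7.82 to 1848 that reflects the single read in W1. All reads fell on ENSMUST00000053306, the longer of its 2 listed transcripts. Its level in W2 was below those of Acta2, Tagln, Myl9, Cnn1, Mylk and Lmod1, and the intervals of the 2 libraries did not overlap.

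The order of the levels in W2 by TPM was Acta2, Tagln, Myl9, Cnn1, Mylk, Lmod1, Oxtr, Myh11, Actg2 and Tpm2. Acta2 held 71.3% of the group's TPM there, Tagln 12.9%, Myl9 12.8% and Cnn1 2.30%. The intervals of Tagln and Myl9 overlapped, and so did those of Oxtr and Myh11, so these neighbours did not differ beyond counting error. Because isoforms hide reads unevenly, the order was also taken from reads per 1000 own 50-mers and 1000000 counted reads, over the transcripts with reads and own 50-mers. By that measure, chosen after seeing the data, Acta2 held 49.1% of the summed level, Myl9 25.7%, Tagln 20.6%, Cnn1 2.82% and Mylk 1.36%. Myl9 then stood above Tagln, and Myh11 (0.347%) above Lmod1 (0.0805%) and Oxtr (0.0371%). With own 50-mers counted on the same strand alone, which brings in both read Tagln transcripts, Tagln held 14.0%, Acta2 53.1% and Myl9 27.9%. Both counts of own 50-mers gave the same order, in which Acta2, Cnn1 and Mylk kept the first, the fourth and the fifth place.

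Read by isoform, the 10 genes have 40 listed transcripts, of which 12 had a read, 6 in W1 and 11 in W2. Of the 9 transcripts with over 500 own 50-mers, 7 were read. Of the 31 with 500 or fewer, 5 were read, and 3 of the 40 have no own 50-mer at all. Of these 3, Tagln-203 had its 72 reads in W2 and the others had 0. The transcripts with most reads were the full-length coding forms of Acta2, Tagln, Myl9, Cnn1 and Mylk. Of the 12 read transcripts, Mylk-202 was the only one higher in W1.

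**Figure D3:**
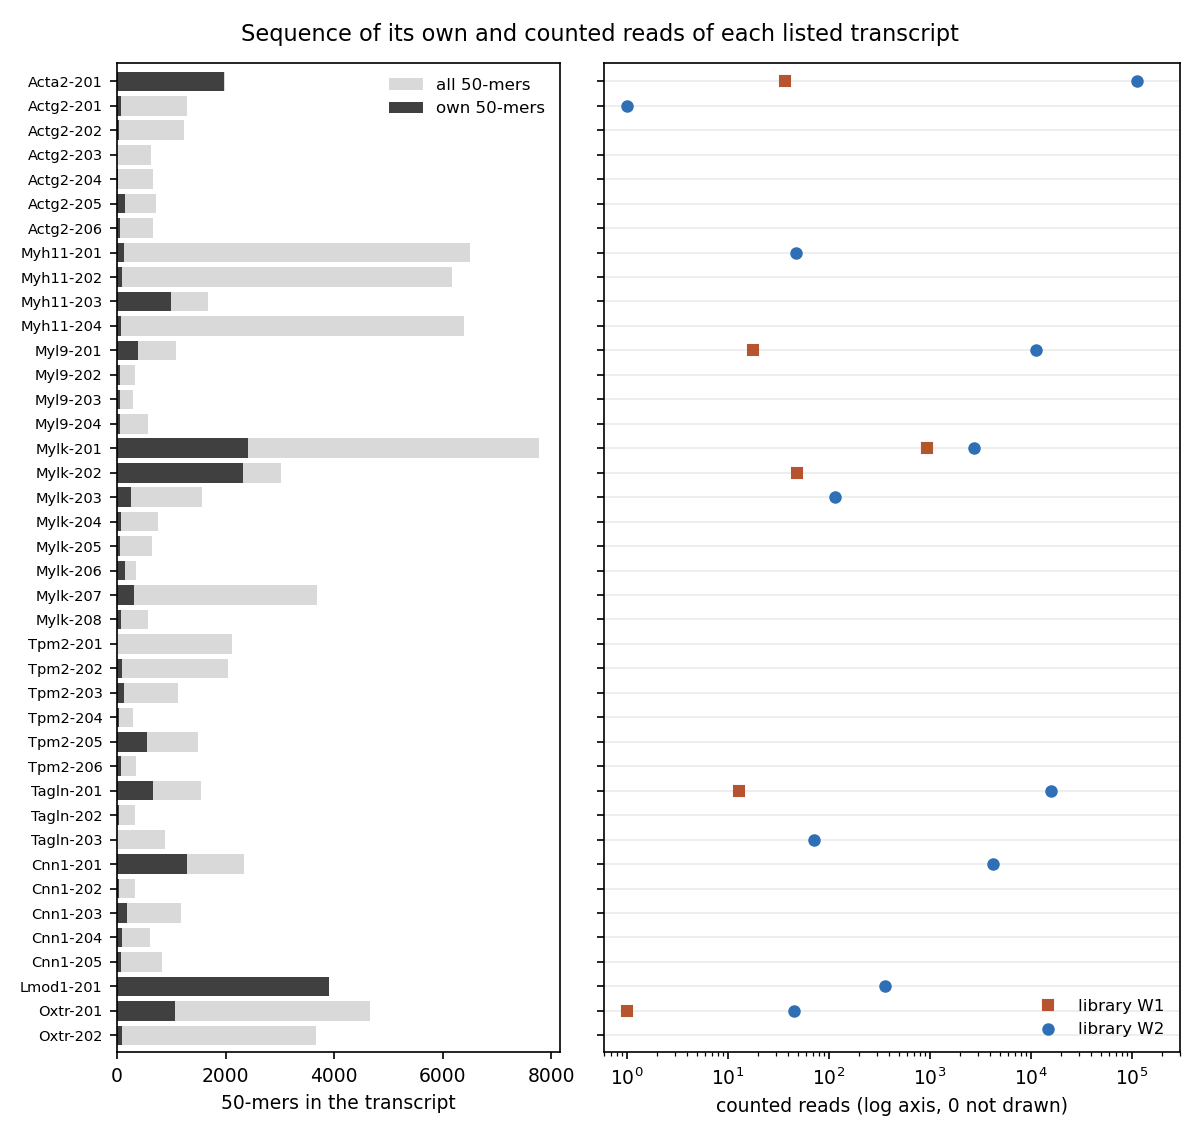
For each of the 40 listed transcripts, the left panel gives the number of 50-mers in all (grey) and those found in no other listed transcript (black), and the right panel gives counted reads in W1 (orange squares) and W2 (blue circles) on a log axis with 0 not drawn. The 12 transcripts with a read included 7 of the 9 with over 500 own 50-mers, and the isoforms of Tpm2, most with little sequence of their own, had none.

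Genes of the wider contraction machinery were found on both sides. Over 5 lists of 115 other genes (filament proteins, light chain phosphorylation, receptors and calcium, the serum response factor program, and filament anchors with adhesion plaques), 88 were compared. Of these, 31 were higher in W1, 23 in W2 and 34 lay within 2-fold, with a median log2 ratio of 0.21. These shares are near the 34.7% and 32.9% of all genes. The split turned to 27 higher in W1 and 32 in W2 when mitochondrial and ribosomal protein genes were left out before scaling, so no direction is read from it.

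Actin and myosin filament genes outside the 10 were spread to both sides. Of 17 compared, 6 were higher in W1, 4 in W2 and 7 within 2-fold, with a median of -0.38. With mitochondrial and ribosomal protein genes left out the counts were 5 and 7. Actb, cytoplasmic actin, stood at 230 TPM in W1 and 96.6 TPM in W2. Tpm3, another tropomyosin, was 9.30-fold higher in W1 (6.33 to 14.1). Also higher in W1 were Myl12b (33 and 6 reads in W1 and W2), Myh10 and Cald1 (16 and 0 each) and Smtn (4 and 0). Myh9, non-muscle myosin, stood at 85.3 and 42.5 TPM, just inside the 2-fold limit on the scale used. The genes higher in W2 included relatives of the 10: Cnn2, a calponin of non-muscle cells, was 8.46-fold higher (7.13 to 10.1) and Actn1, an actin cross-linker, 3.55-fold (2.92 to 4.35). Tagln2, the widely expressed relative of Tagln, stood at 747 and 1258 TPM, within 2-fold, beside the 1222-fold ratio of Tagln. Tpm4, a non-muscle tropomyosin, stood at 709 and 1301 TPM, also within 2-fold, as did Actn4 at 33.5 and 43.7 TPM. Actg1, the other cytoplasmic actin, had 3 and 19 reads, and Myl6, an essential light chain, had 0 and 18, both higher in W2. Of their 50-mers 9.48% and 13.0% are own, so these low counts do not show low levels. With 20 reads required in at least 1 library, the counts of the list were 3 higher in W1 and 2 in W2.

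The enzymes that set light chain phosphorylation were also split, with 6 higher in W1, 4 in W2 and 8 within 2-fold of 18 compared, and a median of -0.18. With mitochondrial and ribosomal protein genes left out the counts were 5 and 6. Rhoa, a small GTPase that holds back light chain phosphatase, stood at 321 TPM in W1 and 309 TPM in W2. Rock1, a kinase that acts on that phosphatase, stood at 65.2 and 73.6 TPM, and Ppp1cb, the catalytic subunit of the phosphatase, at 50.3 and 94.0 TPM. Of the 4 genes higher in W2, Ppp1r12b, a myosin-targeting subunit of that phosphatase best known from striated muscle, was 5.29-fold higher (3.75 to 7.63). Rnd3, a small GTPase that opposes Rock1, was 9.13-fold higher (7.16 to 11.8). Calm2, 1 of the calmodulin genes, was 3.03-fold higher (2.82 to 3.27). Arhgap35, a GTPase-activating protein, was 2.66-fold higher (2.06 to 3.48). Rock2, the relative of Rock1, stood at 48.6 and 32.8 TPM, within 2-fold.

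Receptors and calcium handling genes were found on both sides, with 7 of 18 compared higher in W1, 5 in W2 and 6 within 2-fold, and a median of 0.71. With mitochondrial and ribosomal protein genes left out these counts were 8 and 7. Gnaq, the G protein that carries the oxytocin signal to phospholipase C, stood at 19.4 TPM in W1 and 32.9 TPM in W2. Gna12, another G protein subunit, stood at 66.9 and 22.5 TPM, and Atp2b1, a calcium pump of the plasma membrane, at 49.7 and 7.40 TPM. Rgs2, which shortens Gnaq signals, had the most reads of the list and stood at 230 and 212 TPM. Gna13 and Gna11, further G protein subunits, stood at 148 and 16.5 TPM in W1 and 84.7 and 10.4 TPM in W2, both within 2-fold. Among the 5 genes higher in W2, Kcnmb1, the smooth muscle subunit of the calcium-activated potassium channel, had 0 and 197 reads and was at least 65.2-fold higher. Cacna1c, the pore of the L-type calcium channel, had 0 and 54 reads, 17.9-fold higher at that floor. Prkg1, the cGMP-dependent kinase that relaxes smooth muscle, had 0 and 52 reads, 17.2-fold higher at that floor. Stim1 and Orai1, the sensor and the channel of store-operated calcium entry, had 12 and 4 reads in W1 and 34 and 14 in W2. Avpr1a, a vasopressin receptor, was picked out after its values were seen as a receptor of the other library, with 113 reads in W1 and 0 in W2.

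Genes linked to serum response factor were also found on both sides. Of 18 compared of 26, 5 were higher in W1, 6 in W2 and 7 within 2-fold, with a median of 0.11, and with mitochondrial and ribosomal protein genes left out the counts were 3 and 7. Srf itself was higher in W1, at 22.96 TPM against 7.27 TPM. Elk3, a partner of Srf that is known from endothelium, had 452 reads in W1 and 1 in W2. Pdlim1, an adaptor of actin fibers, stood at 120 TPM in W1 and 3.56 TPM in W2, a ratio of 33.7-fold (23.2 to 51.1). Its relatives Pdlim5 and Pdlim7 were 2.26-fold (2.01 to 2.55) and 2.56-fold (1.88 to 3.51) higher in W1. Vcl, vinculin, stood at 131 and 98.8 TPM, Elk4 at 87.5 and 69.3 TPM and Lpp at 25.2 and 27.0 TPM, all within 2-fold. Fos and Ccn1, induced early by serum, lay within 2-fold, at 2547 and 553 TPM in W1 and 4295 and 658 TPM in W2. Of the coactivators of Srf, Mrtfb had 132 and 90 reads, at 5.32 and 3.61 TPM, within 2-fold. Myocd and Mrtfa were listed at 0 in both libraries, with 8.60% and 7.94% own 50-mers.

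The serum response factor list's 6 genes higher in W2 were Pdlim3, Fhl2, Itga8, Synpo2, Elk1 and Ccn2, named after their values were seen. Pdlim3, an adaptor protein of muscle, had 0 reads in W1 and 620 in W2, 205-fold higher at a floor of 3 reads for W1. Fhl2, a cofactor expressed in heart and smooth muscle, had 2 and 205 reads, a ratio of 102-fold (27.8 to 847). Itga8, an integrin chain of smooth muscle, had 0 and 106 reads, 35.1-fold higher at that floor, and Synpo2, an actin-binding protein of muscle, had 6 and 83 reads.

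Of the filament anchors and adhesion plaque genes, 7 of 17 compared were higher in W1, 4 in W2 and 6 within 2-fold, with a median of 0.97. With mitochondrial and ribosomal protein genes left out these counts were 6 and 5, and with protein-coding transcripts only they were 0 and 2. Tln1, talin, which ties integrins to actin, stood at 86.6 TPM in W1 and 28.2 TPM in W2. Itgb1, the integrin chain shared by most matrix receptors, stood at 81.8 and 120 TPM. Fermt2, a kindlin that activates integrins, had the most reads of the list and stood at 179 and 89.8 TPM, just within 2-fold. Parva and Lims1, partners of integrin-linked kinase, stood at 47.5 and 32.4 TPM in W1 and 57.4 and 20.9 TPM in W2, within 2-fold. Itga1, a collagen receptor chain, was 2.10-fold higher in W1 (1.87 to 2.36). In the other direction Des, desmin, an intermediate filament of muscle, was 10.1-fold higher in W2 (7.05 to 15.1), at 3.49 and 35.4 TPM. Palld, palladin, had 0 reads in W1 and 18 in W2, Filip1l had 0 and 15, and Itga3, a laminin receptor chain, had 1 and 20.

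**Figure D4:**
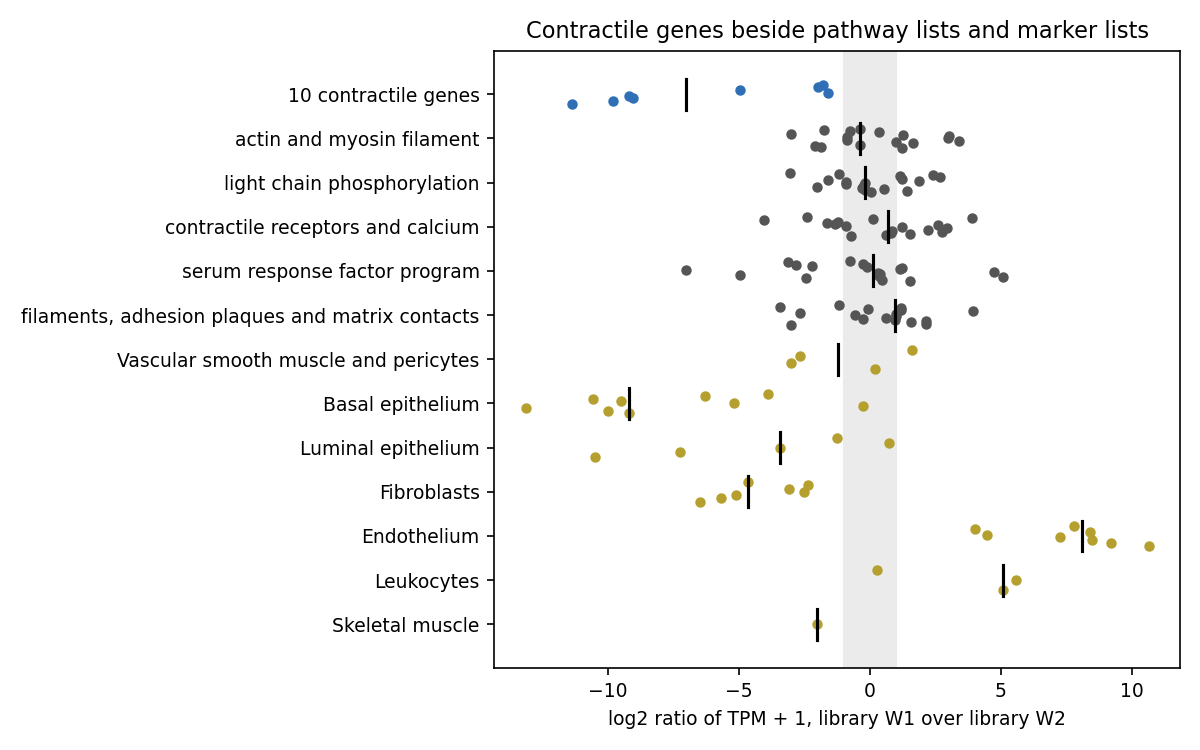
Log2 ratio of TPM + 1, W1 over W2, for each gene compared in the contractile group (blue), in 5 contraction lists (dark grey) and in 7 cell marker lists (ochre), with the median as a black bar and the 2-fold band shaded. The 8 contractile genes all lie to the left, with a median of -7.00, as do most basal markers, while the 5 contraction lists scatter around the band and the endothelial markers lie to the right.

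Other cells that use the same contractile genes were looked at through their own markers. Vascular smooth muscle cells and pericytes carry Acta2, Tagln, Cnn1 and Myh11, and of 15 markers of these cells 4 were compared, 1 higher in W1, 2 higher in W2 and 1 within 2-fold. Their summed level was 67.3 TPM in W1 and 92.7 TPM in W2. Most of it was Rgs5, a pericyte gene, at 59.2 and 51.3 TPM, and Des, which the adhesion plaque list also holds. The defining markers Pdgfrb, Cspg4, Kcnj8, Abcc9 and Myocd were at 0 reads in both libraries, as were 9 of the 15 in all, and Notch3 had 3 and 0 reads. These zeros carry little weight where few 50-mers are own, which holds for Pdgfrb (2.07%), Abcc9 (2.71%), Kcnj8 (7.82%) and Myocd (8.60%), while Cspg4 has 18.0%. Vtn, vitronectin, had 0 reads in W1 and 28 in W2, and Rgs4 had 37 and 6. Of 10 skeletal muscle markers, 9 were at 0 in both libraries and Actn3 had 27 reads in W2. The part of vascular cells in the contractile levels was not tested.

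The genes beside the 10 on the chromosome did not all go the same way. Of 20 adjacent protein-coding genes 13 were compared, 7 higher in W2, 3 higher in W1 and 3 within 2-fold, with a median log2 ratio of -1.29, beside 32.9% and 34.7% higher in W2 and W1 over all genes. Stambpl1, which lies 756 bases from Acta2, had 0 reads in W1 and 6 in W2, beside the 37 and 112934 reads of Acta2. Fas, on the other side of Acta2, stood at 18.2 TPM in W1 and 110.6 TPM in W2, and Hacd2, next to Mylk, at 6.42 and 33.0 TPM. Tln1, which lies 7753 bases from Tpm2, was higher in W1.

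The protein-coding genes whose log2 ratio of TPM + 1 lay nearest to the group's median of -7.00, among those with 100 reads or more in a library, were Pdlim3, Aqp3, Phlda3, Tent5b and Zfp296. Pdlim3 and Aqp3, a water channel of epithelia, both had a ratio of -7.00, Phlda3 had -7.03, Tent5b -6.94 and Zfp296 -6.93. In W2 these genes stood between 121 TPM for Zfp296 and 159 TPM for Phlda3, and in W1 between 0 and 0.230 TPM. The likeness rests on a single ratio between 2 libraries.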

How the data were processed

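RNA of 2 libraries was analysed. The submitters' processing notes name Bowtie 0.12.2 and the builds mm8 and GRCm38, with no role for either build. The authors deposited TPM and FPKM values for 137767 transcripts, with the counting tool, the annotation and strand use not given in the sources used here. Identifiers were matched to GENCODE M21 (113 unmatched, 0.025% and 0.0066% of TPM in W1 and W2) and summed per gene. Counted reads were recovered from FPKM times length, which came out whole within 0.1 read for 98.5% and 98.1% of transcripts above 0. Genes that reached 1 TPM in either library entered the comparison with a pseudocount of 1, and 2-fold was called higher, a scale that understates ratios of low genes. Intervals are Clopper-Pearson at 95%, and 0 reads were given a floor of 3 reads. Folds at that floor leave out the counting error of the other library. Genes named in each contraction list were the 6 with most reads and those opposite to the list's majority, marker lists are given by examples, and others, among them genes at 0 and chromosomal neighbours, were chosen after their values were seen. The members and lists were chosen with earlier results of these data known. The recovery of reads and the 2-fold rule were tested on simulated data, and the other steps were not. Python 3.11.15 was used with pandas 2.3.3, numpy 2.4.6, matplotlib 3.10.9 and scipy 1.17.1.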

Additional observations from a re-analysis of the deposited data

How the results depend on the processing

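Across 11 alternatives 0 contractile genes passed the 2-fold rule toward W1. None of the 8 genes compared changed the sign of its log2 ratio in the 10 or 11 alternatives that gave it one. All 8 were higher in W2 except with a pseudocount of 5, where 6 were, and with 1 TPM required in both libraries, which leaves 4 genes and all 4 higher. Their median of -7.00 was -9.42 with 1 TPM in both libraries, -8.75 and -4.85 with pseudocounts of 0.1 and 5, -4.97 with no filter, -6.69 in FPKM, -7.68 in reads per 1000000 counted reads, -6.78 scaled to a median ratio of 1 over genes read in both libraries (a shift of -0.31 on the log2 scale) and -7.37 with mitochondrial and ribosomal protein genes left out. Mylk ranged from -1.88 to -1.20, Oxtr from -4.28 to -0.69 and Myh11 from -4.65 to -0.57. The share of all genes higher in W1 (34.7%) was 16.6% with 1 TPM in both libraries and 16.8% with a pseudocount of 5, and that in W2 (32.9%) was 19.9% with a pseudocount of 5. In the 5 contraction lists, genes higher in W1 (31) numbered 14 with 1 TPM in both libraries, 19 with a pseudocount of 5 and 15 with protein-coding transcripts only, and those in W2 (23) numbered 8 and 14 with the first and the second of these. For the filters, fewer genes compared is part of the difference, and otherwise the cause was not tested. No paired analysis was possible because the libraries carry no shared replicate number, and with 1 library each none could be left out. Oxtr, Myh11, Actg2 and Tpm2 rest on 0 to 48 reads per library, so small differences in them were not detectable at this depth.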
